A study of Mus musculus with 6 samples.

Results

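The genes described here are 10 components and target genes of bone morphogenetic protein (BMP) signalling, with the Id genes among them. They were taken by name: the ligand Bmp4, the receptor Bmpr1a, the inhibitors Smad6 and Bambi, and the target genes Id1, Id2, Id3, Id4, Msx1 and Msx2. All 10 were found among the 53390 genes to which transcripts were summed, and all 10 were among the 18177 genes that passed the filter on low counts. The lowest estimated count of any of them in any library was 42, for Msx1 in TKO-serum replicate 1.

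Poly(A)-selected RNA was sequenced from triple knockout (TKO) mouse embryonic stem (ES) cells, which carry Dnmt1-/-, Dnmt3a-/- and Dnmt3b-/- and so lack the DNA methyltransferases. TKO-serum cells (3 libraries) grew in medium with 15% fetal calf serum (FCS) and 500 U/ml of leukaemia inhibitory factor (LIF). TKO-2i cells (3 libraries) grew for 14 days in serum-free N2B27 medium with 1 uM of the MEK inhibitor PD0325901, 3 uM of the Gsk3 beta inhibitor CHIR99021 and 1000 U/ml of LIF. The comparison asks how the transcriptome of ES cells without DNA methylation differs between the 2 media. Both conditions came from the TKO line alone, a derivative of the male J1 line of strain 129S4/SvJae grown without feeder cells, so every statement holds for that line. Inhibitors, serum, basal medium and LIF dose all changed together and cannot be told apart. The labels call the 3 libraries of a condition biological replicates. Total estimated counts were 46228700, 44180642 and 43896549 in TKO-2i and 38274042, 51932739 and 44827609 in TKO-serum. Log expression correlated at 0.988 or more across genes between replicates and at 0.938 or less between conditions (genes are not independent replicates).

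BMP ligands are secreted dimers that bind type I and type II receptor kinases, which phosphorylate Smad1, Smad5 and Smad9. These join Smad4, enter the nucleus and activate target genes, of which the Id genes are the best known. Id proteins lack a DNA-binding region and hold E proteins (Tcf3, Tcf4, Tcf12) away from DNA. In ES cells kept with serum and LIF, BMP signalling through Id genes is known to restrain neural differentiation, and serum itself carries BMP activity.

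Transcripts of the 3 targeted methyltransferase genes were detected in every library. Dnmt1 had a level in TPM (transcript abundance scaled to transcript length and library) of 29.1, 34.6 and 29.3 in TKO-2i and 25.7, 28.6 and 27.9 in TKO-serum. Dnmt3a had 4.3, 5.19 and 4.54 TPM in TKO-2i against 21.3, 23 and 22.7 in TKO-serum. Dnmt3b had 6.71, 9.53 and 8.49 TPM in TKO-2i against 18.8, 20.9 and 20.7 in TKO-serum. These sums include any transcript left outside the deleted exons, which are not given in the sources used here, so they do not check the genotype.

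The ES cell label held in both conditions. Counts of called markers here and in the next paragraph stand beside 31.9% of all genes tested called higher in TKO-2i and 30.6% lower. The test is described below. The 7 ES cell markers (Pou5f1, Sox2, Nanog, Zfp42, Utf1, Dppa5a and Esrrb) summed to 5157, 4679 and 4673 TPM in TKO-2i and to 5928, 5579 and 5703 TPM in TKO-serum, with Dppa5a the most abundant (2 called higher, 3 lower). The 7 fibroblast or feeder markers summed to 6.45, 7.24 and 6.31 TPM against 12.1, 13.6 and 12.6, led by Thy1 in TKO-2i and by Twist1 in TKO-serum (0 called higher and 3 lower of 4 tested), and Col3a1 and Dcn were under 3 counts in all TKO-2i libraries.

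Among markers of differentiated cells, 6 of 7 primitive endoderm genes were called lower in TKO-2i and none higher. They summed to 4.76, 5.8 and 4.69 TPM in TKO-2i against 14.6, 17.7 and 19.3 in TKO-serum, led by Gata4 (2.41 TPM on average, not called) in TKO-2i and by Dab2 (6.72) in TKO-serum. The 7 neural and surface ectoderm markers summed to 9.98, 11.6 and 9.84 TPM against 18, 20.5 and 19, with 1 called higher and 4 lower of 5 tested. Pax6 led in TKO-serum (11.9 TPM on average, 1.94 in TKO-2i), while most of the TKO-2i sum was Tfap2a, the gene called higher (6.85 TPM against 1.8), and Neurog3 was under 3 counts in all TKO-2i libraries. The remaining lists were higher in TKO-2i in sum. The 7 primitive streak and mesoderm markers summed to 13.3, 13.1 and 19.1 TPM against 4.42, 5.19 and 4.54 (1 called higher and 1 lower of 5 tested), most of it from T in TKO-2i (11.8 TPM on average, 0.271 in TKO-serum). The 7 trophoblast markers summed to 17.1, 17.7 and 17.9 TPM against 14.5, 14.1 and 13.2 (3 called higher, 3 lower). Tfap2a, which is in this list too, Eomes and Cdx2 led in TKO-2i, and Ascl2 led in TKO-serum and ran against the sum (0.706 TPM in TKO-2i, 8.56 in TKO-serum). The part of these cells in the values below was not tested.

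Of the 10 genes, 7 were called by edgeR's quasi-likelihood test (adjusted p under 0.05, with Benjamini-Hochberg adjustment over all genes tested), where 62.5% of all genes tested were called. Bmp4, Id3, Id4, Msx1 and Msx2 were higher in TKO-2i, 5 of 10 beside 31.9% of all genes. Id1 and Id2 were lower in TKO-2i, 2 of 10 beside 30.6% of all genes. The 7 of 10 called lie near the share among all genes tested. With the cut-off of the study's methods added, an absolute log2 fold change above 2, only Id1 and Id2 passed, 2 of 10 beside 9.19% of all genes. Normalised counts scaled to library size (CPM) of the conditions did not overlap for 7 of the 10 genes, beside 67.5% of all genes tested. The median log2 fold change (TKO-2i over TKO-serum) of the 10 genes was 0.35, against 0.01 over all genes tested.

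**Figure D1:**
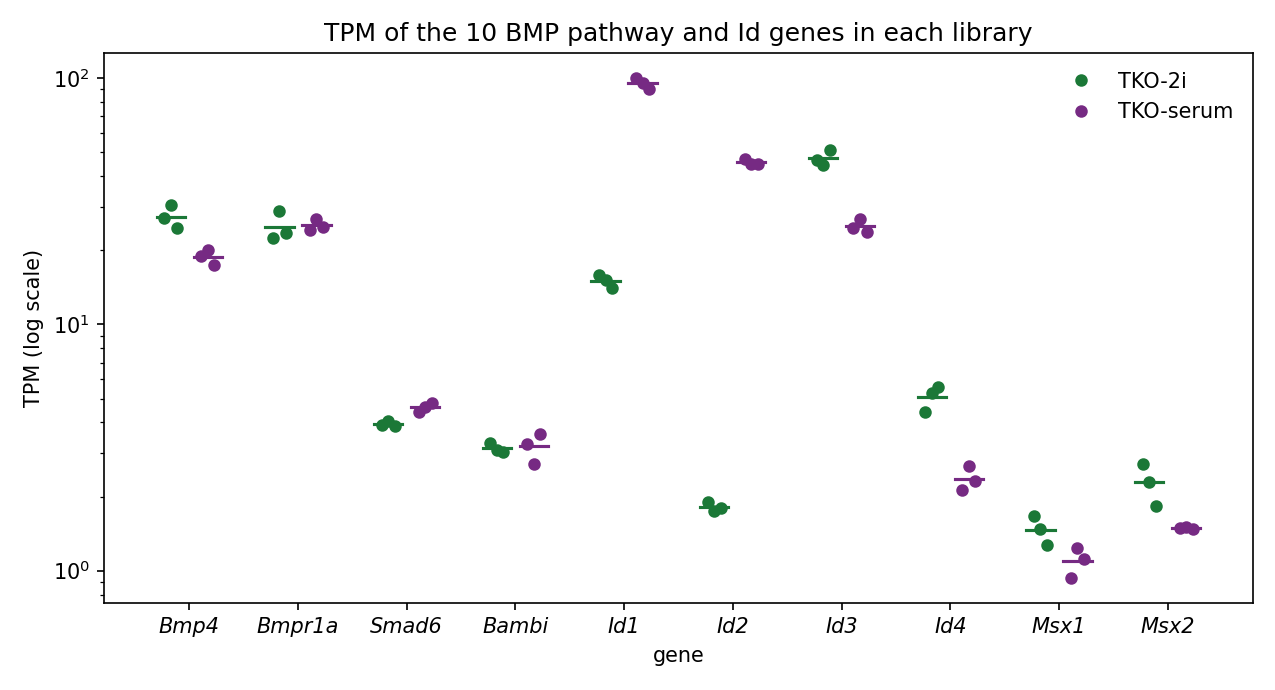
TPM on a log axis of the 10 genes, ordered by role, with a point for each library and a bar at the mean of the 3 libraries of a condition (green TKO-2i, purple TKO-serum). Id1 and Id2 sit lower in TKO-2i while Id3 and Id4 sit higher, and the points of Bmpr1a and Bambi overlap between conditions.

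Bmp4, the ligand of the group, lies on the minus strand at chr14:46383520-46390669 (GRCm38, GENCODE M21). Its level was 27, 30.6 and 24.6 TPM in TKO-2i and 18.9, 20.1 and 17.5 TPM in TKO-serum. The 3 TKO-2i libraries were all above the 3 TKO-serum libraries. The log2 fold change was 0.68 (SE 0.07, edgeR adjusted p = 4.1e-05), a 1.6-fold higher level. A transcript with a retained intron, Bmp4-204, held 23.7% to 38.3% of the gene's TPM in TKO-2i and 30.1% to 35.2% in TKO-serum, so these ranges overlapped. The antisense gene Gm15222 lies inside Bmp4 and had 5 to 46 counts per library, against 765 or more for Bmp4. The library kit keeps strand, but whether the counting used it is not given in the sources used here.

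Bmp4 was also the most abundant of the 14 BMP ligands, with a mean of 80.6% of their summed TPM in TKO-2i and 75.1% in TKO-serum. Of the 13 others, 7 were tested, with a median log2 fold change of -0.82. Of these, 1 was called higher and 4 lower, beside 31.9% and 30.6% of all genes tested. Bmp7, a ligand that can pair with Bmp4, was the gene called higher. It had 4.12, 4.45 and 3.77 TPM in TKO-2i and 1.02, 1.12 and 1.08 in TKO-serum, and these levels were apart in all 6 libraries (log2 fold change 2.05, SE 0.08, edgeR adjusted p = 2.6e-07). Its mean share of the summed ligand TPM was 12.1% in TKO-2i and 4.28% in TKO-serum.

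Bmp8a and Bmp8b are neighbouring copies that share 268 words of 31 bases, 11.2% of those of Bmp8a. Bmp8b shared 278 of its 3815 words (7.29%) with any other gene, Bmp8a included. Reads may therefore be split between Bmp8a and Bmp8b, and their separate values are uncertain. Bmp8b had 0.118, 0.264 and 0.141 TPM in TKO-2i and 1.26, 1.41 and 1.16 in TKO-serum (log2 fold change -2.90, SE 0.25, edgeR adjusted p = 1.7e-05). Bmp8a had 1.13, 1.35 and 1.33 TPM against 1.43, 1.62 and 1.35, ranges that meet at 1.35 TPM (log2 fold change -0.11, edgeR adjusted p = 0.52). Gdf7, a ligand of the developing roof plate, was at 0.523 to 0.66 TPM in TKO-2i and 0.908 to 1.23 TPM in TKO-serum. Its log2 fold change of -0.66 (SE 0.23, edgeR adjusted p = 0.036) passed the test in 8 of 14 alternative settings, with adjusted p from 0.005 to 0.13. Bmp6, named after its values were seen, was lower in TKO-2i by a log2 fold change of -1.72 (SE 0.18, edgeR adjusted p = 5e-05).

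Bmpr1a, the type I receptor of the group, lies at chr14:34410734-34503341 on the minus strand. It had 22.4, 28.9 and 23.4 TPM in TKO-2i and 24.1, 26.8 and 24.9 TPM in TKO-serum. TKO-2i replicate 2 was the highest of the 6 and replicate 1 the lowest, and the conditions overlapped. No difference passed the test (log2 fold change 0.15, 95% interval -0.04 to 0.34, edgeR adjusted p = 0.15), though 1 of 14 alternative settings, a block on replicate number, gave a call (0.15, adjusted p = 0.015). Its annotated transcript Bmpr1a-203, which starts furthest upstream, was listed at 0 TPM in all 3 TKO-2i libraries and at 2.31, 1.34 and 2.39 TPM in TKO-serum. This is a description of the deposited transcript estimates, which divide reads that several transcripts share, and was not tested.

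Across the 10 other receptors and co-receptors, all tested, 2 were called higher and 3 lower, beside 31.9% and 30.6% of all genes tested. The median log2 fold change of these 10 was -0.11. The type I receptor Bmpr1b was near the floor of 3 counts in TKO-2i, with 5, 6 and 4 counts in TKO-2i and 105, 140 and 115 in TKO-serum (log2 fold change -4.49, SE 0.21, edgeR adjusted p = 5e-07). Even in TKO-serum it was at 0.894 to 0.915 TPM, far below Bmpr1a. Acvr1, another type I receptor for BMPs, had 7.9, 9.4 and 7.65 TPM in TKO-2i and 4.49, 4.3 and 3.78 in TKO-serum, all TKO-2i libraries lying above all TKO-serum libraries (log2 fold change 1.08, SE 0.09, edgeR adjusted p = 1.2e-05). The co-receptor Rgma likewise rose, from 1.23 to 1.28 TPM in TKO-serum to 2.88 to 3.19 TPM in TKO-2i (log2 fold change 1.46, SE 0.10, edgeR adjusted p = 5.1e-06). Its relative Hjv (named Hfe2 in the annotation, and singled out after its values were seen) fell by 1.31 on the log2 scale (SE 0.18, edgeR adjusted p = 0.00027).

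The co-receptor Eng, which held 30.1% of the summed receptor TPM in TKO-2i and 32.1% in TKO-serum, gave a log2 fold change of -0.01 (95% interval -0.13 to 0.11, edgeR adjusted p = 0.91). Acvr2b, a type II receptor shared with activins, gave -0.22 (SE 0.09, edgeR adjusted p = 0.058). It was called in 6 of 14 alternative settings, with adjusted p from 0.004 to 0.2. The block on replicate number was among these 6 (adjusted p = 0.041). Eng and Bmpr1a, the receptors with the highest TPM, were thus among those not called without that block, and the 5 called receptors were all at lower TPM.

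Of the 4 signal-transducing Smads, 3 were called higher in TKO-2i and none lower, beside 31.9% and 30.6% of all genes tested. The median log2 fold change of these Smads was 0.37. Smad9 changed most, from 0.472, 0.599 and 0.482 TPM in TKO-serum to 1.49, 1.53 and 1.53 TPM in TKO-2i (log2 fold change 1.65, SE 0.12, edgeR adjusted p = 5.3e-06). Smad1 had 8.49, 9.83 and 7.87 TPM in TKO-2i and 5.91, 7.03 and 6.69 TPM in TKO-serum, without overlap (log2 fold change 0.53, SE 0.06, edgeR adjusted p = 0.00013). Smad5, at 9.33 to 13 TPM and 10 to 11.9 TPM, overlapped between conditions (log2 fold change 0.09, 95% interval -0.15 to 0.32, edgeR adjusted p = 0.49). Smad4, the common partner and the most abundant of the 4, gave 0.20 (SE 0.05, edgeR adjusted p = 0.0066), a call that was absent with limma on log2(TPM + 1) (0.09, adjusted p = 0.32, the highest over 14 alternative settings, of which 12 kept the call).

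Smad6 and Bambi are inhibitors that BMP signalling itself induces: Smad6 blocks receptor and Smad1 activity inside the cell, and Bambi is a receptor-like protein without a kinase. Smad6 (minus strand, chr9:63953076-64022059) had 310, 252 and 291 counts in TKO-2i and 261, 351 and 318 in TKO-serum. In TPM it was 3.89, 4.06 and 3.86 against 4.4, 4.61 and 4.8. The conditions overlapped in CPM but not in TPM, where all 3 TKO-serum libraries were higher. No difference passed the test (log2 fold change -0.06, 95% interval -0.28 to 0.16, edgeR adjusted p = 0.62). Bambi (plus strand, chr18:3507923-3516404) had 3.3, 3.1 and 3.03 TPM in TKO-2i and 3.26, 2.72 and 3.6 TPM in TKO-serum. TKO-serum held both the highest and the lowest library (log2 fold change 0.06, 95% interval -0.19 to 0.32, edgeR adjusted p = 0.65).

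Of the 6 other intracellular inhibitors, 2 were called higher and 3 lower, beside 31.9% and 30.6% of all genes tested. Skil, a corepressor of Smad complexes, had 10.3, 13.2 and 9.69 TPM in TKO-2i and 48.7, 54.3 and 51.5 TPM in TKO-serum. It moved from 27.5% of the summed inhibitor TPM in TKO-serum to 8.34% in TKO-2i, with no overlap between libraries (log2 fold change -2.14, SE 0.09, edgeR adjusted p = 3.3e-07). Its relative Ski fell by 0.37 on the log2 scale (SE 0.05, edgeR adjusted p = 0.00028), and Smad7, the other inhibitory Smad, by 0.25 (SE 0.05, edgeR adjusted p = 0.0015). Tob1, which binds BMP Smads, gave 0.15 (edgeR adjusted p = 0.023), a call found in 3 of 14 alternative settings (adjusted p from 0.013 to 0.79). Smurf1, a ubiquitin ligase for BMP Smads named after its values were seen, was the other gene called higher (0.17, edgeR adjusted p = 0.018), a call found in 5 of 14 alternative settings (adjusted p from 0.0097 to 0.54). Neither was called without TKO-2i replicate 1 or without any 1 of the TKO-serum libraries.

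Of 17 secreted antagonists and modulators, 11 were tested (median log2 fold change -0.99). Of these, 1 was called higher and 6 lower, beside 31.9% and 30.6% of all genes tested. The classical antagonists Nog and Chrd, singled out after their values were seen, were low in both conditions, at 0.293 to 0.654 TPM and 1.04 to 1.44 TPM. Twsg1, a BMP-binding protein, held 64.5% of the summed TPM of the list in TKO-2i and 62.4% in TKO-serum. Its log2 fold change of -0.17 (edgeR adjusted p = 0.035) was called in 7 of 14 alternative settings, with adjusted p from 0.0097 to 0.14. Fst, which traps activin and some BMPs, was the gene called higher, at 5.33, 4.41 and 5.25 TPM in TKO-2i and 3.03, 2.65 and 3.97 TPM in TKO-serum (log2 fold change 0.64, SE 0.14, edgeR adjusted p = 0.0042). Crim1, a membrane protein that binds BMPs, was at 0.798 to 1.05 TPM in TKO-2i and 2.73 to 2.85 TPM in TKO-serum (log2 fold change -1.51, SE 0.09, edgeR adjusted p = 2.5e-06). Bmp1, a protease that cleaves chordin and is no BMP ligand, gave the same log2 fold change of -1.51 (SE 0.12, edgeR adjusted p = 9.7e-06).

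The 4 Id genes did not move together. Id1 (plus strand, chr2:152736251-152737410) had 15.8, 15.2 and 14 TPM in TKO-2i and 100.1, 95.3 and 90.4 TPM in TKO-serum. All 3 TKO-2i libraries were far below all 3 TKO-serum libraries. The log2 fold change was -2.52 (SE 0.10, edgeR adjusted p = 2.1e-07), a level 5.74-fold lower. In RNA from whole cultures, fewer cells that express a gene and less RNA per cell cannot be told apart.

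Id2 (minus strand, chr12:25093799-25097140) had 1.9, 1.75 and 1.79 TPM in TKO-2i and 46.8, 44.9 and 44.6 TPM in TKO-serum. In estimated counts this was 57, 50 and 52 against 1150, 1445 and 1243. Every TKO-2i library was low and every TKO-serum library high, with no overlap. The log2 fold change of -4.53 (SE 0.09, edgeR adjusted p = 1.6e-08), a level 23.1-fold lower, ranked 235 from the lowest among the 18177 genes tested. In the same TKO-2i libraries the sums of the primitive endoderm list and of the neural and surface ectoderm list were lower, and those of the primitive streak and trophoblast lists higher, as given above.

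Id3 (plus strand, chr4:136143497-136145755) went the other way, with 46.5, 44.2 and 50.9 TPM in TKO-2i and 24.7, 26.9 and 23.8 TPM in TKO-serum. Its log2 fold change was 1.06 (SE 0.11, edgeR adjusted p = 4.7e-05). Id4 (plus strand, chr13:48261228-48266026) had 4.41, 5.28 and 5.55 TPM in TKO-2i and 2.12, 2.67 and 2.31 TPM in TKO-serum. Its log2 fold change was 1.23 (SE 0.13, edgeR adjusted p = 5.4e-05). For both genes all 3 TKO-2i libraries were above all 3 TKO-serum libraries. The directions of all 4 Id genes, and their calls, were the same in all 14 alternative settings.

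The balance among Id genes therefore differed between conditions. Id1 held 23%, 22.9% and 19.4% of the summed Id1 to Id4 TPM in TKO-2i and 57.6%, 56.2% and 56.1% in TKO-serum. Id2 held 2.77%, 2.63% and 2.48% against 27%, 26.4% and 27.7%. Id3 held 67.8%, 66.5% and 70.5% against 14.2%, 15.8% and 14.8%. Id3 was thus the leading Id transcript in every TKO-2i library and Id1 in every TKO-serum library. Id4 held 6.43%, 7.95% and 7.69% in TKO-2i and 1.22%, 1.57% and 1.43% in TKO-serum. For each of the 4 shares the conditions did not overlap, and the exact two-sided permutation test of each gave p = 0.1, the smallest that 3 against 3 libraries allow.

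The summed TPM of Id1 to Id4 was 68.7, 66.5 and 72.2 in TKO-2i and 174, 169.8 and 161 in TKO-serum. The sum was 2.43-fold higher in TKO-serum (log2 ratio of TKO-2i to TKO-serum -1.28), and the conditions did not overlap. The E proteins that Id proteins bind moved the other way: Tcf3, Tcf4 and Tcf12 were all 3 called higher in TKO-2i, beside 31.9% of all genes tested, with log2 fold changes of 0.38 (SE 0.08, edgeR adjusted p = 0.0039), 0.54 (SE 0.10, edgeR adjusted p = 0.0015) and 0.38 (SE 0.06, edgeR adjusted p = 0.00063). Together they summed to 108, 124 and 114 TPM in TKO-2i and 94.7, 96.3 and 100.2 TPM in TKO-serum, most of it from Tcf3. The summed Id TPM divided by the summed E protein TPM, a ratio chosen after the values were seen, was 0.635, 0.537 and 0.633 in TKO-2i and 1.84, 1.76 and 1.61 in TKO-serum. Id transcripts per length were fewer than those of E proteins in each TKO-2i library and more in each TKO-serum library. Protein levels were not measured here.

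**Figure D2:**
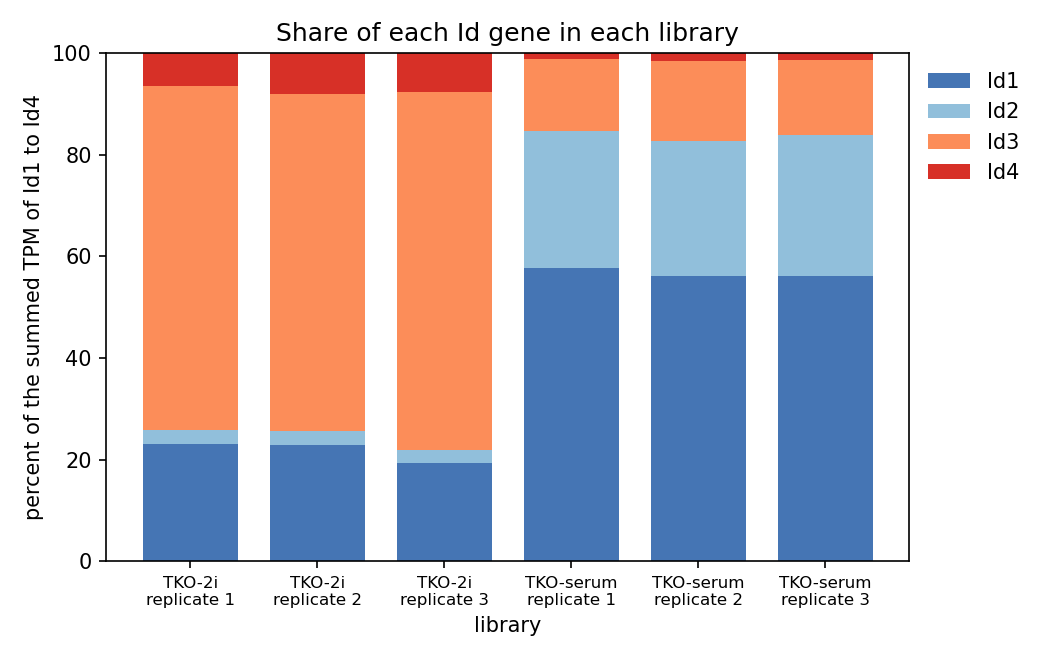
Stacked bars of the percent of the summed Id1 to Id4 TPM held by each Id gene in each of the 6 libraries, without error bars since each bar is 1 library. Id3 holds 66.5% to 70.5% in TKO-2i, and Id1 holds 56.1% to 57.6% in TKO-serum.

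The homeobox genes Msx1 and Msx2, targets of BMP signalling in many embryonic tissues, were both low. Msx2 (minus strand, chr13:53466884-53473074) had 2.72, 2.29 and 1.83 TPM in TKO-2i and 1.49, 1.51 and 1.48 TPM in TKO-serum. The TKO-2i libraries were spread but all above TKO-serum (log2 fold change 0.73, SE 0.17, edgeR adjusted p = 0.0046). Msx1 (minus strand, chr5:37820485-37824583) had 1.66, 1.47 and 1.27 TPM in TKO-2i and 0.937, 1.24 and 1.11 TPM in TKO-serum, where the nearest libraries almost touched. Its log2 fold change of 0.56 (SE 0.18, edgeR adjusted p = 0.022) passed in 8 of 14 alternative settings, with adjusted p from 0.016 to 0.089. Leaving out TKO-2i replicate 1, TKO-serum replicate 1 or TKO-serum replicate 3 gave edgeR adjusted p of 0.085, 0.074 and 0.061.

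Of the 8 other target genes, 6 were tested, 5 were called lower and none higher, beside 30.6% and 31.9% of all genes tested. The median log2 fold change of these 6 was -0.91, against 0.01 over all genes tested. Dusp9, a phosphatase of ERK kinases that BMP signalling induces in ES cells, had 27.3, 28.3 and 21.3 TPM in TKO-2i and 54.6, 61.8 and 58.9 TPM in TKO-serum, without overlap (log2 fold change -1.07, SE 0.09, edgeR adjusted p = 1.4e-05). Gata2, a transcription factor of blood and trophoblast, fell by 0.75 on the log2 scale (SE 0.09, edgeR adjusted p = 0.00017). Its relative Gata3, named after its values were seen, had 5, 6 and 10 counts in TKO-2i and 61, 95 and 70 in TKO-serum (log2 fold change -3.33, SE 0.26, edgeR adjusted p = 1e-05). Target genes thus went both ways: of the 14 tested, 7 were called lower in TKO-2i, beside 30.6% of all genes (Id1, Id2, Dusp9, Gata2, Gata3, Smad7 and, named after its values were seen, Dlx3 with a log2 fold change of -1.68, SE 0.20, edgeR adjusted p = 0.00011), and 4 higher, beside 31.9% (Id3, Id4, Msx1 and Msx2).

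Over all 60 pathway genes beside the 10, 46 were tested, 12 were called higher and 20 lower (beside 31.9% and 30.6% of all genes tested), and their median was -0.20 on the log2 scale against 0.01 for all genes. Past the added cut-off of 2 were 7 of the 46, beside 9.19% of all genes tested. They were Bmp7, Bmp8b, Bmpr1b, Skil and Gata3, with Bmper (4, 9 and 10 counts in TKO-2i against 27, 34 and 39, log2 fold change -2.04, SE 0.33, edgeR adjusted p = 0.00074) and Chrdl1 (3, 2 and 1 counts against 23, 32 and 32, at or under the floor of 3 in TKO-2i, so that its fitted fold change is not given), the last 2 and Gata3 being singled out after their values were seen. Bmp7 was the gene among them that was higher in TKO-2i. Bmp7 and Bmper passed the cut-off narrowly: without TKO-2i replicate 1 they gave 1.99 and -1.73. Without TKO-serum replicate 3 Bmper gave -1.91. With limma on log2(TPM + 0.1) Bmp7, Bmper and Chrdl1 fell below it, and on log2(TPM + 1) all but Skil did. The median log2 fold change of tested genes was 0.41 on chromosome 6, 0.26 on chromosome 11 and from -0.15 to 0.05 on each other chromosome. Of the pathway genes named here Gata2 lies on chromosome 6 and Tob1, Nog and Dlx3 on chromosome 11, and none of the 10 genes lies on either. The cause of these shifts was not tested.

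**Figure D3:**
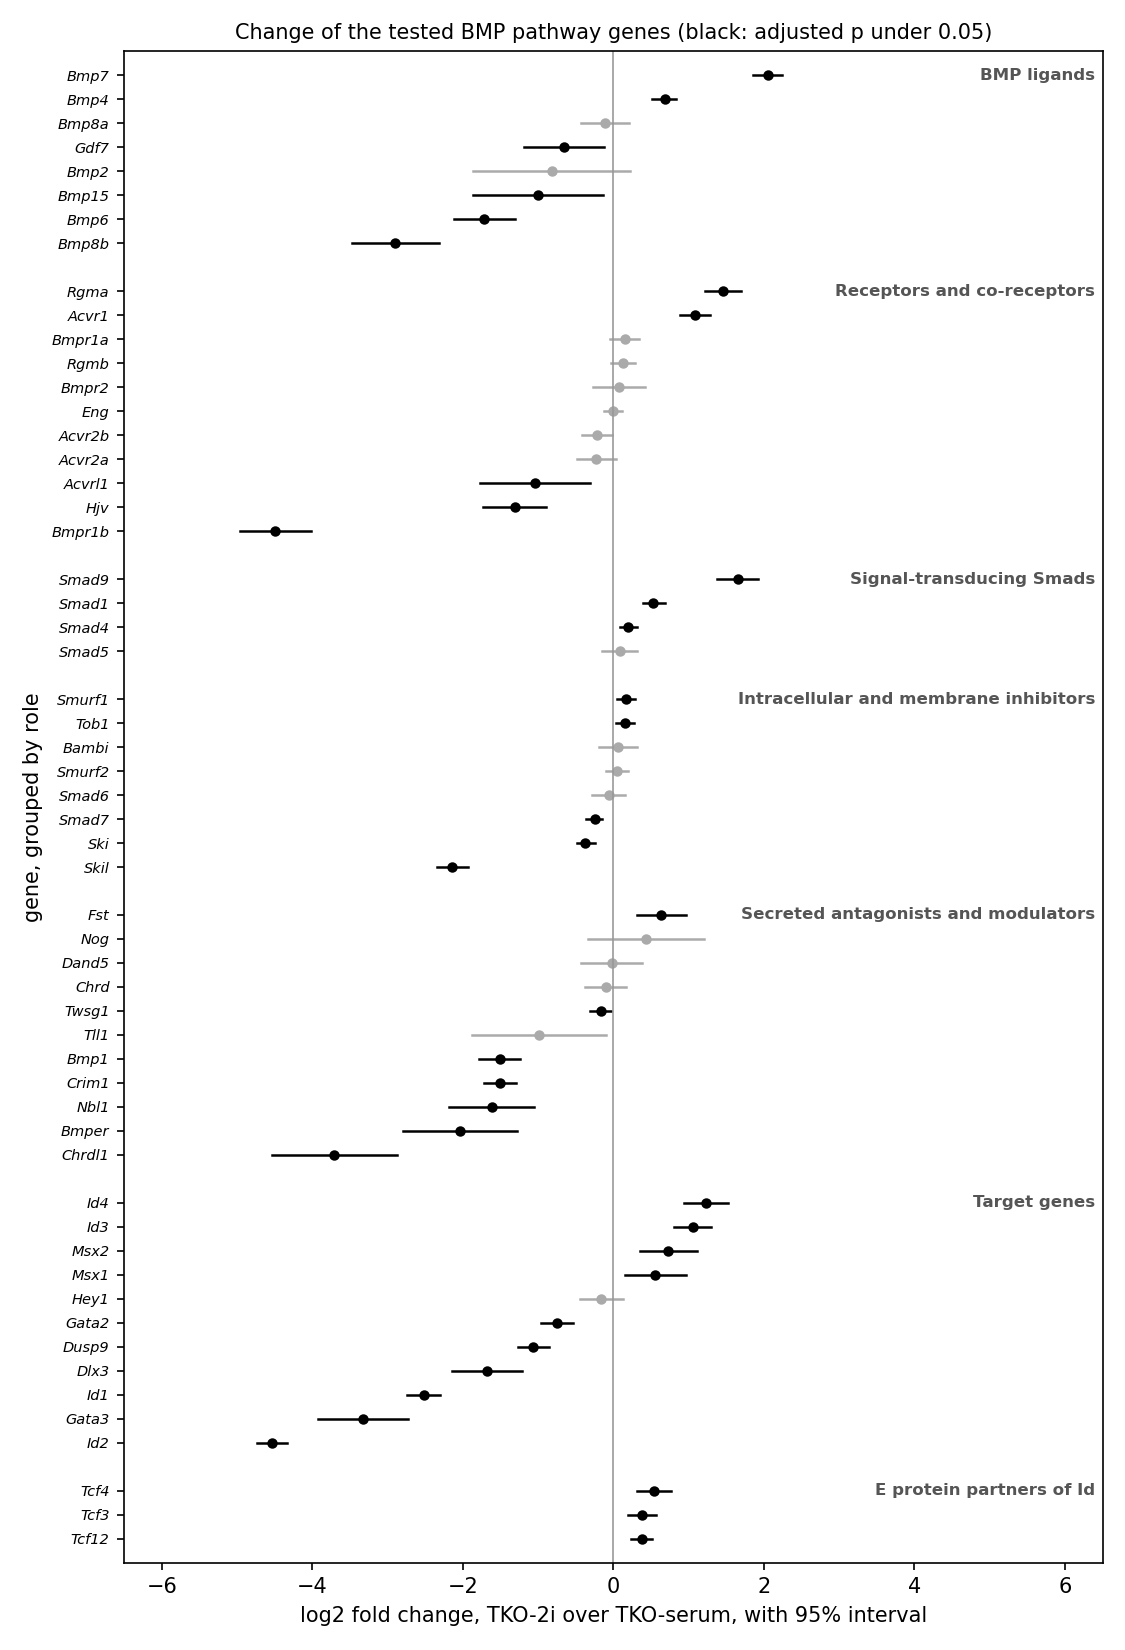
Log2 fold change (TKO-2i over TKO-serum, points) with 95% interval (lines) of every tested BMP pathway gene, grouped by role, with genes past the test in black and the others in grey. Genes of more than 1 list are drawn once, and the target genes run from 1.23 for Id4 to -4.53 for Id2.

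In order of mean level per length, TKO-2i ran Id3 (47.2 ± 3.4 TPM, SD, n = 3), Bmp4 (27.4 ± 3.04), Bmpr1a (24.9 ± 3.52), Id1 (15 ± 0.934), Id4 (5.08 ± 0.596), Smad6 (3.94 ± 0.11), Bambi (3.15 ± 0.142), Msx2 (2.28 ± 0.445), Id2 (1.81 ± 0.0765) and Msx1 (1.47 ± 0.194). Bmp4 overlapped with Bmpr1a and Msx2 with Id2, and the other neighbours did not overlap. The order in TKO-serum was Id1 (95.3 ± 4.88 TPM, SD, n = 3), Id2 (45.4 ± 1.24), Bmpr1a (25.3 ± 1.42), Id3 (25.1 ± 1.61), Bmp4 (18.8 ± 1.32), Smad6 (4.6 ± 0.203), Bambi (3.2 ± 0.443), Id4 (2.37 ± 0.279), Msx2 (1.49 ± 0.0118) and Msx1 (1.09 ± 0.151). Here Bmpr1a and Id3 overlapped, and the other neighbours did not. Id2 moved furthest, from the place behind Id1 in TKO-serum to a place among the Msx genes in TKO-2i.

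Single transcripts made up most of each Id gene. Id1-201 held 97.7% to 98.7% of the Id1 TPM in TKO-2i and 98% to 98.7% in TKO-serum, Id2-201 held 92.8% or more of Id2 in every library, and Id3-201 held 88.7% or more of Id3. Id4 has 1 annotated transcript. Copies in other genes were few: Id1, Id3, Smad6, Bmpr1a and Msx1 shared 0 words of 31 bases with transcripts of any other gene, Id2 shared 39 of 2433 with Gm6175, and Bambi shared 17 of 5044 with its pseudogene Bambi-ps1. Sharing of 0.808% of words by Bmp4 and 0.746% by Msx2 was with many genes at once.

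The genes whose values over the 6 libraries lay nearest to those of Id1, by Euclidean distance of centred log2(CPM + 0.5) among 12863 protein-coding genes, included Chrna9 (0.16) and Cnn2 (0.16). Cnn2, which encodes an actin-binding calponin, fell by 2.50 on the log2 scale (SE 0.07, edgeR adjusted p = 6e-08). Nearest to Id3 were St8sia5 (0.10), Lrriq4 (0.11) and 1810043G02Rik (0.17), and nearest to Bmp4 were Mtus2 (0.08), Tstd3 (0.09) and Elmo3 (0.10). Likeness over 6 libraries of 2 conditions follows mostly the size of the difference between the conditions.

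The promoter table used here, taken from RefSeq (GRCm38.p6), gave a start site for 8 of the 10 genes and has no row for Id1 and Bambi, which does not mean that RefSeq lacks them. The 250 bases before each start were searched on both strands for GGCGCC, a GC-rich motif known to be bound by Smad1 and Smad5, and for GTCTG, which reads CAGAC on the other strand, the core of the motif of Smad4. GGCGCC occurred in 3 of the 8 windows, those of Id2, Id4 and Bmpr1a, and in 9.59% of all 32851 promoter windows of that length. The motif holds only G and C, which made up 62.8%, 75.6% and 78.8% of these 3 windows. Windows of like G and C content were not compared, so the 2 rates show no enrichment. GTCTG occurred in 1 of the 8, that of Id3, and in 42.2% of all. Of the 250 bases, all lie in GENCODE exons of the gene for Id3 and Msx2, 161 for Id2 and 141 for Bmpr1a. These windows are thus wholly or partly annotated as transcribed, the one with GTCTG wholly. A match describes letters in a window and no site. The windows of Id4 and Bmp4 are printed as examples from genes higher in TKO-2i whose windows hold no base of a GENCODE exon of the gene, and that of Msx1, which meets the same terms and holds neither motif, is left out. That of Id4 (plus strand, chr13:48260866-48261115) has GGCGCC in capitals, its first base 148 bases before the start, and that of Bmp4 (minus strand, chr14:46390670-46390919) holds neither motif.
Id4: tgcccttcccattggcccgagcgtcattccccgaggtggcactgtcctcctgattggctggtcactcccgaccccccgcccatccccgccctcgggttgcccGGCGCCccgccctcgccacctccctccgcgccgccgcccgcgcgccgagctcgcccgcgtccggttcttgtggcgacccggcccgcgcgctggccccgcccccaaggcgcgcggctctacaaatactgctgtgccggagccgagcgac
Bmp4: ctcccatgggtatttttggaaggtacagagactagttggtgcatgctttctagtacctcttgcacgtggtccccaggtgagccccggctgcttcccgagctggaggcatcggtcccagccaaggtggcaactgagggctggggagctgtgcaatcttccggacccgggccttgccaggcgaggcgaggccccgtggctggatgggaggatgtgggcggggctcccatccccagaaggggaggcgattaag
G and C made up 75.6% of the Id4 window and 63.2% of the Bmp4 window, with 35 and 11 CG dinucleotides.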

How the data were processed

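The authors sequenced 6 stranded, poly(A)-selected libraries made from 500 ng of RNA each. The paper describes sequencing in pools. Which pool held each of these 6 libraries is not given in the sources used here, so a pool effect was not checked. The authors deposited, per transcript, an estimated count and a TPM value. The program that made them is not given in the sources used here, and the submitters' processing notes name the build mm10. Here estimated counts and TPM were summed per gene with GENCODE M21 names (136100 of 136288 transcripts matched), and counts were rounded. edgeR 4.0.16 (R 4.3.3, TMM, filterByExpr, quasi-likelihood test, condition only, Benjamini-Hochberg adjustment over 18177 genes) was the main test, checked on simulated counts. In these counts 50 of the 18177 genes were changed at each size. It recovered 14 of 50 at an absolute log2 fold change of 0.5, 38 at 1, 49 at 2 and 49 at 4. There were 6 false calls. Far fewer genes were changed there than were called in the data, so error rates in the data were not tested. DESeq2 1.42.0, limma 3.58.1 and scipy 1.17.1 gave alternatives and exact tests. SE came from the fold change and the F statistic. A count of 3 was the floor, and intervals cover the fitted spread between libraries.

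The 10 genes and the pathway and marker lists were chosen with earlier results of these data known. Beside the 10, from each role list the text names up to 3 genes of highest mean TPM and up to 2 called genes of largest change with a mean CPM of at least 1. The genes nearest in pattern to Id1, Id3 and Bmp4 were also named, except for a gene near Id1 that is not reported here.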

Additional observations from a re-analysis of the deposited data

How the results depend on the processing

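The 10 genes were refitted under 8 other settings of tool, scaling, filter, unit or block and with each of the 6 libraries left out. Of 80 values under the former, 72 kept their direction and their side of the threshold, as did 55 of 60 under the latter. Called numbers stayed within 1.5 times: all genes 9804 to 12568 (11361 as reported), of the 10 genes 4 to 6 higher and 2 lower, and of the other pathway genes 9 to 12 higher and 15 to 23 lower (12 and 20 as reported). Msx1 lost its call with DESeq2 (0.54, adjusted p = 0.05), limma on log2(TPM + 1) (0.23, 0.064) and on log2(TPM + 0.1) (0.39, 0.089), and ran from 0.39 to 0.64 with libraries left out. The log2(TPM + 1) scale understates changes of low genes. Genes without a call turned sign near 0: with limma, Bambi (-0.01 on both scales), Bmpr1a (-0.03 on both) and Smad5 (-0.05 and -0.06). With libraries left out, Smad6 ran from -0.12 to 0.03 (highest without TKO-2i replicate 2), Bambi from -0.05 (without TKO-serum replicate 2) to 0.14, Eng from -0.05 to 0.02 (without TKO-2i replicate 2 or TKO-serum replicate 1) and Smad5 from -0.04 (without TKO-2i replicate 2) to 0.15. The log2 ratio of the summed Id TPM was -1.14 from CPM per mean effective length (-1.28 as reported). The causes were not tested.

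Whether replicate numbers pair the libraries is not established: deviations of same-numbered libraries correlated at 0.242, 0.329 and 0.014, and 5 of 6 libraries correlated best with their own number in the other condition. A block on replicate number gave 12539 called genes, and Bmpr1a passed (log2 fold change 0.15, adjusted p = 0.015). With this block Acvr2b passed too (-0.22, adjusted p = 0.041). Gdf7 passed barely (-0.66, with an adjusted p under the threshold that rounds to 0.05).

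Depth limits the low genes: with 38274042 to 51932739 estimated counts a library, Bmpr1b, Gata3, Bmper and Chrdl1 rest on 10 counts or fewer in each TKO-2i library, Chrdl1 on 3 or fewer. With 3 libraries a condition from 1 line, a difference that missed the threshold is not shown to be absent.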
